A study of Mus musculus with 6 samples.

Results

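The transcripts described here are 9 noncoding RNAs of macrophages, AW112010, Neat1, Malat1, Mir155hg, Mir22hg, Gas5, Snhg1, Snhg12 and Gm42418, which were taken by symbol from the 55453 genes of a table of RNA-Seq counts. Each of the 9 was found in the table under its own symbol, and each passed the filter on low counts that left 13680 genes. AW112010 was chosen because it was much higher without PP2Ac, so its values are given as a description and with no test. The other 8 were chosen by class, as abundant nuclear RNAs, hosts of microRNAs, hosts of small nucleolar RNAs (snoRNAs) and a ribosomal RNA row. Earlier results of these data were known when they were chosen, so the number of calls among the 8 is a description.

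The table held 6 libraries of bone marrow-derived macrophages (BMDM), all labelled C57BL/6. The PP2Ac KO group had 3 libraries, from LysMcre PP2Ac fl/fl mice, and the PP2Ac WT group had 3, from mice with an intact gene. PP2Ac is the catalytic subunit of the phosphatase PP2A, encoded by Ppp2ca. The cre is driven by the promoter of Lyz2, a gene of the myeloid lineage, and removes exon 1 of Ppp2ca, while the WT mice were bought from a supplier, so cre and the mouse colony differed between the groups along with Ppp2ca and cannot be told apart from it. The mice of the study were of both sexes and aged 6 to 10 weeks, and BMDM were collected on day 7 of culture. Both groups are taken to have been exposed to the STING agonist cGAMP at 10 μg/mL for 4 h, a treatment that the labels of the libraries do not give, and there was no untreated library. The labels do not say whether the libraries of a group came from separate mice, so p-values measure the spread between these libraries, which may be technical.

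Library totals ran from 35257156 to 47390899 counts. Ppp2ca had 33 to 47 counts in the PP2Ac KO libraries and 8279 to 10654 in the PP2Ac WT libraries, which matched the labels. Of 9 macrophage markers, 8 were counted 3599 times or more in every library, while Lyz2 had 260 to 421 counts. The summed level of the macrophage markers was 9629 to 9810 counts per 1000000 (CPM) in PP2Ac KO and 7935 to 8710 CPM in PP2Ac WT. At an edgeR adjusted p under 0.05, 3 of the 9 were called higher in PP2Ac KO (Fcgr1, Ptprc and Mertk) and none lower. Over all genes 18.1% were called higher and 19% lower. With the replicate number added to the fit as a block, 6 of the 9 were called higher, beside 24.4% of all genes. Fibroblast markers were lower in PP2Ac KO, with a summed level of 26.2 to 38.4 CPM against 83.3 to 128 CPM. Of these, 7 of 7 tested genes were called lower, beside 19% of all genes, led by Col1a1 at a log2 fold change of -2.10. B cell markers summed to 14.9 to 15.3 CPM in PP2Ac KO and 20.2 to 29.1 CPM in PP2Ac WT, with Ighm called lower at -0.80, and dendritic cell markers to 2.30 to 3.32 and 1.60 to 2.42 CPM. Ighm was the only call among 3 tested B cell markers. Of 4 tested dendritic cell markers 2 were called higher, Clec9a at 1.25 and Siglech at 0.97, beside 18.1% of all genes. Of 8 T and NK cell markers, none reached 6 counts in any library, and Cd8a was at 0 in all 6. Neutrophil markers summed to 0.911 to 0.969 CPM in PP2Ac KO and 0.705 to 1.07 CPM in PP2Ac WT, with S100a8 at 25 to 37 counts. Erythroid markers summed to 0.0707 to 0.121 and 0.0805 to 0.143 CPM. On these lists the neutrophil genes Ly6g and Retnlg and the erythroid gene Alas2 were among those at 0 in all 6. The part of these other cells in the results below was not tested, and in bulk samples fewer cells of a type and less RNA per cell cannot be told apart.

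Long noncoding RNAs are transcribed and often spliced and polyadenylated like messenger RNAs but are not known mainly for a protein product. Neat1 is the scaffold of paraspeckles, nuclear bodies that retain RNA and RNA-binding proteins, and Malat1 gathers in nuclear speckles, where splicing factors are stored. A host gene such as Mir155hg carries a microRNA hairpin that is cut out of the primary transcript by Drosha and Dgcr8, and a host such as Gas5 carries snoRNAs that are released from its introns and guide the modification of ribosomal RNA. In macrophages, Mir155hg is a classic gene of the inflammatory response, and AW112010 is known to be induced by microbial products and interferons and has been reported to contain a short translated reading frame.

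The sequences that the host genes are known for, and the promoter of the transcript with the largest difference, are printed first. Mir155 lies in an annotated exon of Mir155hg on chromosome 16 (84714140 to 84714204, plus strand) and Mir22 lies in an annotated exon of Mir22hg on chromosome 11 (75463716 to 75463810, plus strand), both in GRCm38. The mature microRNAs from RefSeq are given with the seed, bases 2 to 8, in capitals. No other mature mouse microRNA in that table shared any of these 4 seeds.
miR-155-5p: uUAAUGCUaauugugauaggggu
miR-155-3p: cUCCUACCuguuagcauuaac
miR-22-5p: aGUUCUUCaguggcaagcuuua
miR-22-3p: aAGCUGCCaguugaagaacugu

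RefSeq promoter windows, 250 bases before to 50 after an annotated start in GRCm38.p6, were matched for 7 of the 9 members. Neat1 and Gm42418 were not matched. The window of AW112010 is shown because this RNA had the largest difference of the members. It lies on the minus strand at chr19:11050517-11050816, within the longer GENCODE gene model. The capitals mark the reverse complement of GGGA followed after 2 bases by TTCC, a simple form of the NF-kB site, which began 70 bases before the start (position -70). These letters, searched on both strands, were in 1.47% of 32851 promoter windows. The window held no match to GAAA followed after 2 bases by GAAA, a simple form of the interferon-stimulated response element (in 3.44% of windows), none to TTC followed after 3 bases by GAA, a form of the interferon-gamma activated site (8.3%), and none to TGANTCA, a form of the AP-1 site (7.81%). A match to letters is a description of the window and not a measured binding site.
AW112010 promoter: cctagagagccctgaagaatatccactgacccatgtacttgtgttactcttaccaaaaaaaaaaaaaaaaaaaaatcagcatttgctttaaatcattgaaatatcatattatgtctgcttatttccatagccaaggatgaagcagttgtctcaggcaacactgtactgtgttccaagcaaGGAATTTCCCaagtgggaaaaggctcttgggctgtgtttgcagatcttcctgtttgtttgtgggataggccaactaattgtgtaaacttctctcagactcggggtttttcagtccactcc

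snoRNA host genes are known for a run of pyrimidines at the start of the transcript, the terminal oligopyrimidine motif, which ties their RNA to the control of translation. For that reason the 61 bases around the annotated starts of the 3 snoRNA hosts are printed, with the pyrimidine run in capitals, from chr1:161035136-161035196 for Gas5, chr19:8723457-8723517 for Snhg1 and chr4:132308648-132308708 for Snhg12, all on the plus strand. The longest run that touched the 10 bases on either side of the start was of 6 bases in Gas5, 9 in Snhg1 and 9 in Snhg12. It began at position -1 in Gas5, at -3 in Snhg12 and at 5 in Snhg1, where it lay wholly after the annotated start. By the same search the microRNA hosts Mir155hg and Mir22hg had runs of 8 and 5 bases, so a run was not particular to the snoRNA hosts. A run of 5 or more bases was found in 45.9% of the 32851 windows and a run of 8 or more in 14%. The Gas5 window shown is the second of the pair that RefSeq lists, the one with such a run.
Gas5 start: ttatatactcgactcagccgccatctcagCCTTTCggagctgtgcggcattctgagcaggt
Snhg1 start: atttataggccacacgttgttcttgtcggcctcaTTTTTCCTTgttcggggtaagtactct
Snhg12 start: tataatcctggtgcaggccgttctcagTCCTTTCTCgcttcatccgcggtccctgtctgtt

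Among the 8 members that were tested, edgeR's quasi-likelihood test called 3 higher in PP2Ac KO at an adjusted p under 0.05 (Mir155hg, Mir22hg and Gm42418), 1 lower (Snhg1) and 4 neither way (Neat1, Malat1, Gas5 and Snhg12). Over all 13680 genes tested the same call was made for 18.1% as higher and 19% as lower. Over the 1033 genes that GENCODE M21 classes as long noncoding, a class that includes a few symbols of protein genes such as Ifi30, it was made for 13.4% and 8.81%. The groups of 3 libraries did not overlap for 5 of the 8, 4 with PP2Ac KO above and Snhg1 with PP2Ac KO below, where 24% of all genes lay wholly above and 26.8% wholly below. With a log2 fold change beyond 1 and an adjusted p under 0.01, the only call among the 8 was Mir155hg, against 3.36% of all genes called higher and 2.99% called lower by that rule. With 3 libraries against 3, an exact permutation test cannot go below p = 0.1.

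**Figure D1:**
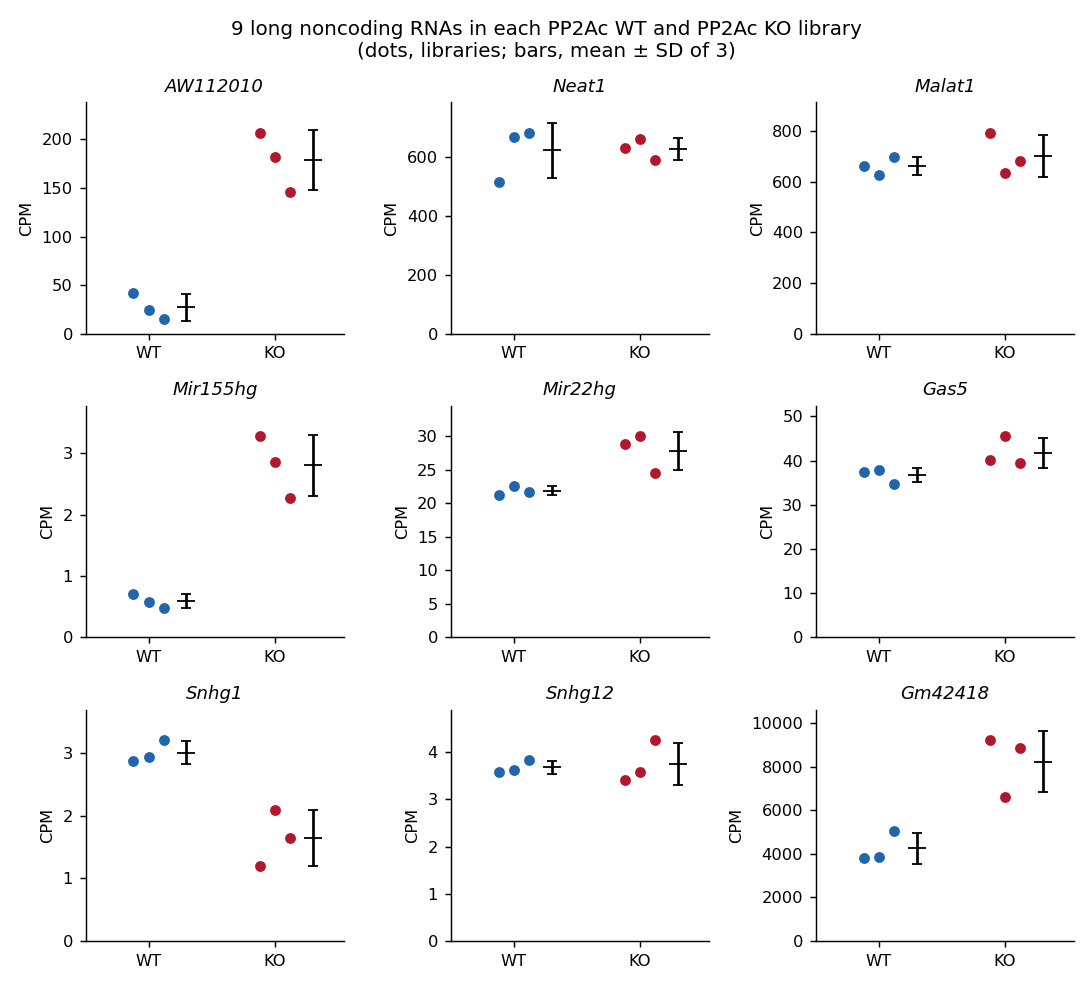
Level of each of the 9 noncoding RNAs in CPM (counts per 1000000, linear axes from 0) in the 3 PP2Ac WT (blue) and 3 PP2Ac KO (red) libraries, with the mean ± SD of each group in black. The KO libraries lie wholly above the WT libraries for AW112010, Mir155hg, Mir22hg, Gas5 and Gm42418, wholly below for Snhg1, and among them for Neat1, Malat1 and Snhg12.

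Per length of exon, the order of the WT means ran from Gm42418 at 2326 ± 388 CPM per kb (SD, n = 3) through Malat1 at 94.9 ± 5.08, AW112010 at 33.6 ± 17.5 and Neat1 at 30.0 ± 4.50 to Mir22hg at 11.3 ± 0.356, Gas5 at 9.76 ± 0.443, Snhg12 at 1.53 ± 0.0568, Snhg1 at 1.02 ± 0.0612 and Mir155hg at 0.409 ± 0.0796 CPM per kb. AW112010 and Neat1 were neighbours in that order whose libraries overlapped, AW112010 spanning 18.3 to 52.6 and Neat1 24.8 to 32.9 CPM per kb. In PP2Ac KO AW112010 had a level of 222 ± 38.1 CPM per kb and stood second, above Malat1 at 101 ± 11.8. Over the 1033 tested long noncoding RNAs and all 6 libraries, Gm42418 was rank 1 by level per kb, Malat1 rank 4 and Neat1 rank 12. AW112010 was rank 3 over both groups together, above Malat1 only through its level in the KO libraries. Mir155hg was rank 228 of 1033 by level and rank 4 by its difference between the groups. With the longest annotated transcript in place of all exons, the WT level of Gas5 was 14.4 CPM per kb and above that of Mir22hg at 12.5.

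**Figure D2:**
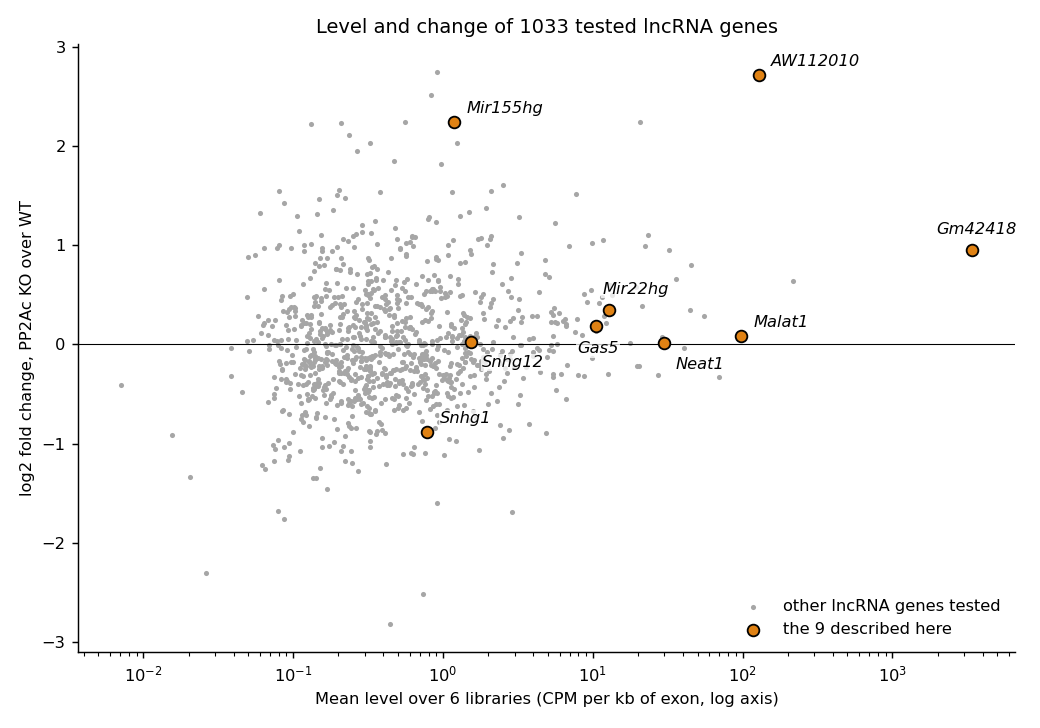
Mean level over 6 libraries (x axis, CPM per kb of exon, log scale) and log2 fold change of PP2Ac KO over WT (y axis) of 1033 tested long noncoding RNA genes, grey, with the 9 members in orange. AW112010 stands at a log2 fold change of 2.72 and Mir155hg at 2.24, while Neat1, Malat1 and Snhg12 lie near 0.

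AW112010 (ENSMUSG00000075010.5, chromosome 19, 11047612 to 11055808, minus strand, GRCm38) was counted 8781, 6018 and 6093 times in PP2Ac KO replicates 1 to 3 and 2101, 1046 and 616 times in PP2Ac WT replicates 1 to 3. These counts are 207, 182 and 146 CPM in PP2Ac KO and 42.3, 24.1 and 14.7 CPM in PP2Ac WT. The lowest KO library was above the highest WT library. The means were 178 ± 30.7 and 27.0 ± 14.0 CPM (SD, n = 3), which is 6.58-fold or 2.72 on the log2 scale (SE 0.32). No 50-base stretch of its transcripts occurred in an annotated transcript of any other gene. By its difference it was rank 2 among 1033 long noncoding RNAs.

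The spread of AW112010 within the WT group was 2.88-fold, wider than its spread of 1.42-fold within the KO group. A short list of 16 interferon-stimulated genes, among them Isg15, Ifit1 and Cxcl10, was set beside it. All 16 were called higher in PP2Ac KO, with a median log2 fold change of 1.12 where the median of all tested genes was -0.02. The list was chosen with its rise in these libraries known, so its count is not independent evidence. The log2 fold changes of the 16 ran from 0.51 for Ifit1 to 2.37 for Iigp1, an interferon-induced GTPase, followed by Gbp2 at 1.67 and Oasl1 at 1.63. The value of AW112010 was above that of each of the 16, but AW112010 was chosen for its rise, so this order is no separate result. It also depends on the list. Of 2 interferon-induced genes that are not on it, Gbp4 had a larger log2 fold change than AW112010 and Ifi44 a smaller one.

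WT replicate 1 was the highest of the WT libraries for all 16 of these genes, as it was for AW112010, and WT replicate 3 was the lowest for 13 of the 16. The 16 genes spread over 1.14-fold to 2.59-fold within the WT group. Relative to Iigp1, AW112010 had 45.3, 46.0 and 39.98% of the counts in PP2Ac KO replicates 1 to 3 and 34.4, 37.3 and 31.0% in PP2Ac WT replicates 1 to 3. Relative to Ifit1 it had 5.97, 5.73 and 4.45% in PP2Ac KO and 1.58, 1.13 and 0.672% in PP2Ac WT. The difference of these ratios between the groups restates the fold changes of the genes and is no separate result.

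**Figure D3:**
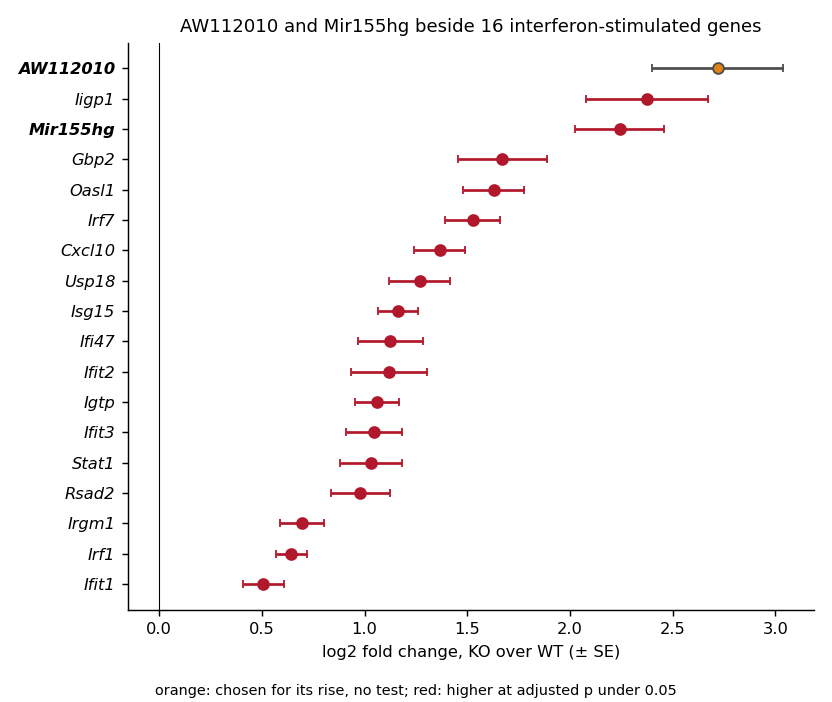
log2 fold change of PP2Ac KO over WT with its standard error (x axis) for AW112010 (orange, not tested), Mir155hg and 16 interferon-stimulated genes (red, called higher at an adjusted p under 0.05). AW112010 lies at 2.72, Iigp1 at 2.37, Mir155hg at 2.24 and the other interferon-stimulated genes between 0.51 and 1.67.

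The 5 tested genes whose centred log2 CPM over the 6 libraries lay nearest to that of AW112010 were Ifi44, F830016B08Rik, Gbp4, Scimp and A630012P03Rik. Ifi44, an interferon-induced gene, was the nearest at a root-mean-square difference of 0.106 log2 units and Gbp4, a guanylate-binding protein of the interferon response, followed at 0.152, behind F830016B08Rik at 0.148. This distance spans both groups, so it largely reflects the difference between them, for which AW112010 was chosen. Only genes with a similar log2 fold change can lie near it, so their nearness is not independent evidence of a shared response. On chromosome 19 the nearest tested gene on the left, 9977 bases away on the same strand, was Gm28347, which is also noncoding. It had 39, 19 and 14 counts in PP2Ac KO and 7, 3 and 2 counts in PP2Ac WT, with a log2 fold change of 2.75 (SE 0.53, edgeR adjusted p = 0.00316). Gm28347 was rank 1 by its difference among the long noncoding RNAs, directly above AW112010, and was at or under the floor of 3 counts in 2 of the WT libraries. On the right the nearest tested gene was the B cell gene Ms4a1, 193867 bases away, at 0.53 (SE 0.39, adjusted p = 0.311).

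Mir155hg (chromosome 16, 84703167 to 84715245, plus strand), the host of miR-155, was counted 139, 94 and 95 times in PP2Ac KO and 35, 25 and 20 times in PP2Ac WT. Its level was 3.28, 2.85 and 2.28 CPM in the KO libraries and 0.705, 0.575 and 0.477 CPM in the WT libraries. Every KO library was above every WT library by more than 3-fold. The means of 2.80 ± 0.502 and 0.585 ± 0.114 CPM (SD, n = 3) gave a log2 fold change of 2.24 (SE 0.22, 95% interval 1.75 to 2.73, edgeR adjusted p = 1.32e-04), or 4.73-fold. Relative to its level the host was thus among the most changed members, although its counts were the lowest together with those of Snhg1.

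The row of the Mir155 hairpin itself was at 0 in all 6 libraries, and so was that of Mir22. Poly(A) libraries of long RNA do not capture mature microRNAs, so the level of miR-155 and miR-22 was not measured, and at 0 counts a library allows up to 3 counts (0.0604 to 0.0909 CPM), a limit for counting error alone. Of 20 genes known as targets of miR-155, 10 were called higher in PP2Ac KO, 3 lower and 7 neither. Over all genes the shares were 18.1% higher and 19% lower. The median of the 20 was 0.24 on the log2 scale. With the replicate number added to the fit as a block, 12 were called higher and 3 lower, in a fit that called 24.4% of all genes higher and 26.4% lower. Ikbke, a kinase that activates IRF3, rose by 0.91 (SE 0.07, adjusted p = 5.51e-05) and Socs1, an inhibitor of cytokine signaling, rose by 0.81 (SE 0.09, adjusted p = 2.85e-04), both on the log2 scale. Wee1, a kinase that holds cells out of mitosis, had a log2 fold change of -0.78 (SE 0.12, adjusted p = 0.00107).

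The genes nearest to Mir155hg in their pattern were Slfn4 at a root-mean-square difference of 0.0759 log2 units, Ccnd2 at 0.105, followed by Gm1966, Treml2 and A330040F15Rik at up to 0.115, over the 6 libraries. Slfn4 is an interferon-induced gene of myeloid cells and Ccnd2 encodes cyclin D2. As for AW112010, the distance spans both groups, here and for the members below. Only genes with a similar log2 fold change can lie near, so nearness is not independent evidence of a shared response. The nearest tested gene on the right of Mir155hg, Mrpl39, lies 2331 bases away on the opposite strand and encodes a protein of the mitochondrial ribosome. Mrpl39 was called higher at 0.54 (SE 0.07, adjusted p = 4.24e-04), and D16Ertd472e on the left, 6126459 bases away, at 0.45 (SE 0.15, adjusted p = 0.0353).

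Mir22hg (chromosome 11, 75461539 to 75466676, plus strand), the host of miR-22, was counted 1223, 990 and 1022 times in PP2Ac KO and 1053, 981 and 911 times in PP2Ac WT. After scaling to library size its level was 28.8, 30.0 and 24.5 CPM in PP2Ac KO and 21.2, 22.6 and 21.7 CPM in PP2Ac WT. The groups did not overlap, and KO replicate 3 was nearest to the WT libraries. The means of 27.8 ± 2.90 and 21.8 ± 0.685 CPM (SD, n = 3) gave a log2 fold change of 0.35 (SE 0.08, 95% interval 0.16 to 0.53, edgeR adjusted p = 0.00998). Without KO replicate 2 the value was 0.29 and the adjusted p 0.0522, which missed the threshold in a fit of fewer libraries, and without KO replicate 1 they were 0.31 and 0.0460. On the same strand 206 bp (10.7%) of its exons are also exons of Tlcd2, where reads of the pair could not be told apart.

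The genes on either side of Mir22hg were not called higher. Wdr81, 6822 bases to the left, was called lower at -0.47 (SE 0.06, adjusted p = 4.53e-04), and the splicing factor Prpf8, 20140 bases to the right, had a log2 fold change of 0.04 (SE 0.11, adjusted p = 0.829). In pattern, Irf2bp2, Gm8730, Cd82, Gm37305 and Chchd7 were nearest, at root-mean-square differences of 0.0414 to 0.0505 log2 units over the 6 libraries. Of 12 listed microRNA host genes, 10 were in the table and 5 passed the filter. Of these 5, 3 were called higher, beside 18.1% of all genes. The third was Mir142hg, the host of the blood cell microRNA miR-142, at 0.29 (SE 0.08, adjusted p = 0.0172). Mir17hg had a log2 fold change of -0.22 (SE 0.21, adjusted p = 0.440) and Mir99ahg of -0.67 (SE 0.28, adjusted p = 0.0906), the latter called lower in the blocked fit (adjusted p = 0.0105).

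Of 13 genes of the machinery that makes and loads microRNAs 1 was called higher, 5 lower and 7 neither, the median log2 fold change being -0.15. Over all genes 18.1% were called higher and 19% lower. With the replicate block 2 were called higher and 7 lower, in a fit that called 24.4% and 26.4% of all genes. Dgcr8, the partner of Drosha, had a log2 fold change of -0.52 (SE 0.07, adjusted p = 4.49e-04), and the Argonaute genes Ago3 and Ago4 had -0.50 (SE 0.10, adjusted p = 0.00393) and -0.50 (SE 0.07, adjusted p = 5.18e-04). Drosha itself rose by 0.38 (SE 0.08, adjusted p = 0.00675) on the log2 scale.

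Gas5 (chromosome 1, 161034422 to 161038539, plus strand), a host of several box C/D snoRNAs that is also known as a decoy of the glucocorticoid receptor, was counted 1704, 1503 and 1645 times in PP2Ac KO and 1859, 1648 and 1459 times in PP2Ac WT. Its level was 40.2, 45.5 and 39.4 CPM in PP2Ac KO and 37.4, 37.9 and 34.8 CPM in PP2Ac WT. The KO libraries were all above the WT libraries, by a margin narrower than the spread within either group. The log2 fold change was 0.18 (SE 0.07, 95% interval 0.02 to 0.35), and the edgeR adjusted p of 0.0773 missed the threshold. When the replicate number was added to the fit as a block, the value was 0.18 and the adjusted p 0.00825, which called Gas5 higher.

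Snhg1 (chromosome 19, 8723475 to 8726443, plus strand), a host of box C/D snoRNAs, was the only member that fell. It had 51, 69 and 69 counts in PP2Ac KO and 143, 128 and 135 counts in PP2Ac WT. Its level was 1.20, 2.09 and 1.65 CPM against 2.88, 2.94 and 3.22 CPM, with all KO libraries below all WT libraries and KO replicate 1, the KO library with the most counts in all, the lowest. The means of 1.65 ± 0.444 and 3.01 ± 0.182 CPM (SD, n = 3) gave a log2 fold change of -0.88 (SE 0.19, 95% interval -1.32 to -0.45, edgeR adjusted p = 0.00613).

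Snhg12 (chromosome 4, 132308623 to 132311024, plus strand), a host of box H/ACA and C/D snoRNAs, was counted 145, 118 and 178 times in PP2Ac KO and 178, 158 and 161 times in PP2Ac WT. At 3.42, 3.57 and 4.27 CPM in PP2Ac KO and 3.58, 3.63 and 3.84 CPM in PP2Ac WT, the groups overlapped. The log2 fold change of 0.03 (SE 0.13, edgeR adjusted p = 0.880) had a 95% interval of -0.26 to 0.31, which spans 0.838-fold to 1.24-fold.

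Of 22 listed snoRNA hosts 20 were in the table and 17 were tested, of which 2 were called higher, 4 lower and 11 neither, beside 18.1% and 19% of all genes. Their median was -0.26 on the log2 scale. With the replicate block 4 were called higher and 5 lower. The largest differences were those of Snhg11 at -1.33 (SE 0.35, adjusted p = 0.0157), Rab26os at -1.11 (SE 0.34, adjusted p = 0.0280) and Snhg1, and Snhg11 and Rab26os had no more than 9 counts in any KO library. Epb41l4aos rose by 0.55 (SE 0.13, adjusted p = 0.0103) and Zfas1, which like Gas5 is an abundant host with a terminal oligopyrimidine start, by 0.42 (SE 0.08, adjusted p = 0.00306). The 10 small RNAs of the members that the list held by name, from Mir155 and Mir22 to Snord47 and Snora44, had rows in the table, and each was at 0 in all 6 libraries.

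**Figure D4:**
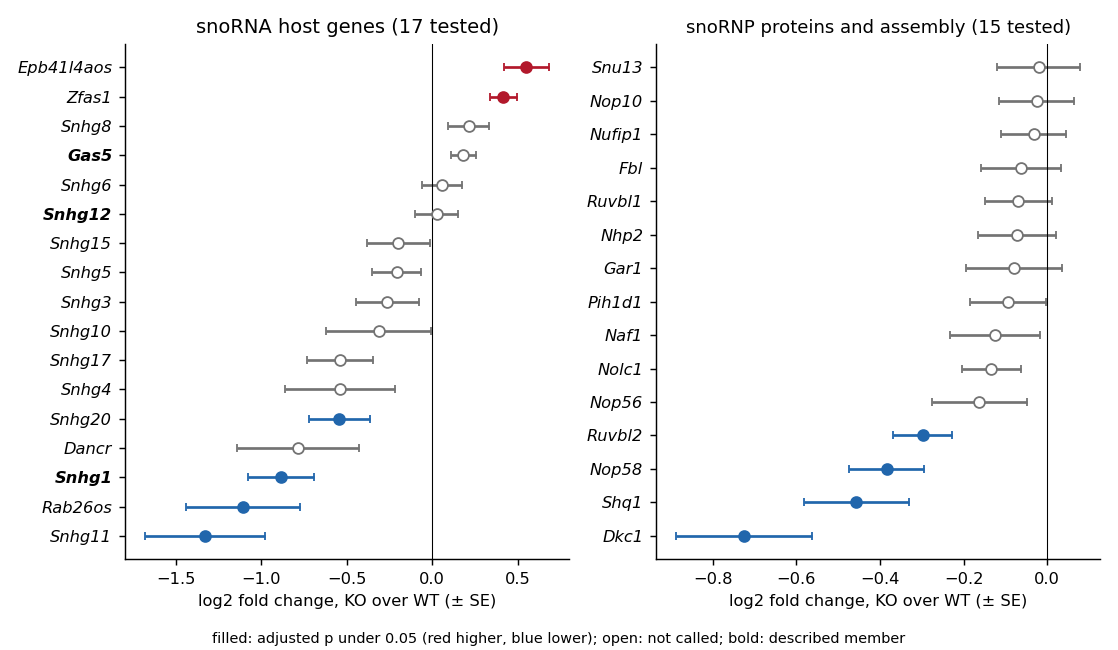
log2 fold change of PP2Ac KO over WT with its standard error for 17 snoRNA host genes (left) and for 15 genes of snoRNA-binding proteins and their assembly factors (right), filled where the adjusted p was under 0.05. Snhg1 lies at -0.88 among the hosts called lower, Gas5 at 0.18 and Snhg12 at 0.03 are open, and all 15 genes on the right lie below 0 with 4 of them filled.

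The genes of proteins that bind or assemble snoRNAs all had a negative log2 fold change, 15 of 15. Of these 4 were called lower and none higher, beside 19% and 18.1% of all genes. Some values lay near 0, such as Snu13 at -0.02 and Nop10 at -0.03, and their signs under other scalings were not checked. The median was -0.09, close to the -0.02 of all tested genes, which is itself below 0. The share of all genes with a negative value was not counted, so the 15 of 15 is only a description. Dkc1, the pseudouridine synthase of box H/ACA particles, had the largest at -0.72 (SE 0.16, adjusted p = 0.00725), followed by the assembly factor Shq1 at -0.46 (SE 0.13, adjusted p = 0.0191) and Nop58, a core protein of box C/D particles, at -0.38 (SE 0.09, adjusted p = 0.00868). Ribosomal protein genes, which share the terminal oligopyrimidine start with the hosts, were mostly called higher. Of 79 tested, 64 were called higher and none lower, beside 18.1% and 19% of all genes, with a median of 0.27 on the log2 scale. With the replicate block 71 were called higher, beside 24.4% of all genes. This list was added after values were seen, so its count is not independent evidence.

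Spliced host transcripts such as Gas5 and Snhg1 are known to be degraded by nonsense-mediated decay. Of 15 genes of that pathway 2 were called higher, 2 lower and 11 neither, beside 18.1% and 19% of all genes. With the replicate block 4 were called higher and 2 lower, beside 24.4% and 26.4% of all genes. Magohb, of the exon junction complex, rose by 0.78 (SE 0.12, adjusted p = 9.79e-04) on the log2 scale, while Upf3b had a log2 fold change of -0.28 (SE 0.08, adjusted p = 0.0225). The central helicase Upf1 had a value of -0.03 (SE 0.06, adjusted p = 0.757).

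Slc3a2, a subunit of amino acid transporters whose start lies 106 bases from that of Snhg1 on the opposite strand, had a log2 fold change of 0.14 (SE 0.07, adjusted p = 0.123; with the replicate block, adjusted p = 0.0115 and called higher), so the genes on either side of that gap had values of opposite sign. Wdr74 on the other side of Snhg1 was at -0.19 (SE 0.09, adjusted p = 0.138; 0.0456 with the block). Trnau1ap, 739 bases from Snhg12, was at 0.06 (SE 0.08, adjusted p = 0.579). In pattern Kifc5b, Cenph, Hmgb3 and Acat2 were among the nearest to Snhg1, at root-mean-square differences of 0.0995 to 0.115 log2 units over the 6 libraries. Kifc5b, a kinesin, and Cenph, a centromere protein, act in cell division, but the distance spans both groups and is no separate evidence of a shared response.

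Neat1 (chromosome 19, 5824708 to 5845478, minus strand) and Malat1 (5795690 to 5802672, same strand) lie 22036 bases apart and are each the nearest tested gene of the other on that side. Neat1 was counted 26807, 21820 and 24542 times in PP2Ac KO and 25564, 29108 and 28628 times in PP2Ac WT. Its level of 632, 661 and 588 CPM in PP2Ac KO lay among the 515, 669 and 683 CPM of PP2Ac WT. The log2 fold change was 0.01 (SE 0.11, 95% interval -0.24 to 0.26, edgeR adjusted p = 0.947), so a change of over 1.20-fold in either direction lies outside the interval.

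Malat1 was counted 33668, 20917 and 28376 times in PP2Ac KO and 32853, 27303 and 29293 times in PP2Ac WT. At 794, 634 and 680 CPM against 661, 628 and 699 CPM the groups overlapped, with KO replicate 1 the highest of the 6. The log2 fold change was 0.08 (SE 0.09, 95% interval -0.12 to 0.29, edgeR adjusted p = 0.512). Together Neat1 and Malat1 took 0.119 to 0.130% of the counts of the KO libraries and 0.123 to 0.151% of the WT libraries. The ratio of Malat1 to Neat1 counts was 1.26, 0.959 and 1.16 in PP2Ac KO and 1.29, 0.938 and 1.02 in PP2Ac WT, lowest in replicate 2 and highest in replicate 1 of both groups.

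Of 24 genes of paraspeckle proteins 4 were called higher, 4 lower and 16 neither, near the 18.1% and 19% of all genes, the median log2 fold change being 0.07. With the replicate block 6 were called higher and 7 lower, near the 24.4% and 26.4% of all genes in that fit. Nono, a core paraspeckle protein that also acts in DNA sensing, rose by 0.55 (SE 0.07, adjusted p = 3.79e-04), Taf15 rose by 0.45 (SE 0.06, adjusted p = 4.94e-04) and Fam98a was called lower at -0.42 (SE 0.09, adjusted p = 0.00510). Sfpq, the partner of Nono, had a value of 0.00 (SE 0.07, adjusted p = 0.995). Of 20 nuclear speckle genes 4 were called higher, near the 18.1% of all genes, and none lower, beside 19% of all genes. The largest values among the 4 were those of the splicing factors Srsf3 at 0.34 (SE 0.07, adjusted p = 0.00519), Luc7l3 at 0.30 (SE 0.06, adjusted p = 0.00492) and Srsf7 at 0.28 (SE 0.05, adjusted p = 0.00332). With the replicate block 7 were called higher and 3 lower, beside 24.4% and 26.4% of all genes.

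Frmd8os, an antisense transcript 145 bases from Neat1 on the opposite strand, had 5 to 7 counts in PP2Ac KO and 11 to 26 in PP2Ac WT, at -1.21 (SE 0.43, adjusted p = 0.0523; 0.0363 with the block). Rere, Pcgf3, Map4 and Ccnt2 were among the nearest to Malat1 in pattern, at root-mean-square differences of 0.0422 to 0.0437 log2 units, and Coq7, C030006K11Rik, Hnrnpa0, Pard6a and Commd4 to Neat1 at 0.0383 to 0.0478, over the 6 libraries. Ccnt2 encodes a cyclin that acts in transcription elongation. Of the other long noncoding RNAs that are broadly expressed, Tug1 had a log2 fold change of 0.00 (SE 0.07, adjusted p = 0.975) and 2900097C17Rik of -0.04 (SE 0.07, adjusted p = 0.720), while Ftx was called lower at -0.94 (SE 0.17, adjusted p = 0.00242) and Kcnq1ot1 at -0.92 (SE 0.24, adjusted p = 0.0161).

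Gm42418 (chromosome 17, 39846958 to 39848788, plus strand) is annotated as a noncoding RNA of 1831 bases, a place in the genome that is known to hold ribosomal RNA sequence. Of its 50-base stretches 94.9% also occurred in the transcript of CT010467.1, and 923 bp (50.4%) of it lie opposite AY036118, so its reads cannot be assigned to one place. It was counted 392516, 219103 and 369334 times in PP2Ac KO and 190536, 167934 and 212849 times in PP2Ac WT. That is 0.841, 0.621 and 0.829% of all counts in PP2Ac KO and 0.402, 0.420 and 0.557% in PP2Ac WT. The level was 9252, 6637 and 8851 CPM in PP2Ac KO and 3835, 3861 and 5077 CPM in PP2Ac WT, with no overlap and with KO replicate 2 nearest to WT.

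The means of 8247 ± 1408 and 4258 ± 710 CPM (SD, n = 3) gave a log2 fold change of 0.95 (SE 0.15, 95% interval 0.62 to 1.29, edgeR adjusted p = 0.00116). Leaving the rows listed as ribosomal, Lars2 among them, out of the library sizes and scaling factors left the value at 0.95. CT010467.1, the row that shares most of its sequence, had 32, 11 and 40 counts in PP2Ac KO and 21, 11 and 20 in PP2Ac WT, at 0.85 (SE 0.39, adjusted p = 0.120; 0.0309 with the block), and its groups overlapped. AY036118 was at 0 in all 6 libraries. Several other rows of ribosomal RNA or of structured RNAs that are not polyadenylated, picked after their values were seen, were called higher. The row n-R5-8s1, a ribosomal RNA, was counted 3192, 1316 and 2840 times in PP2Ac KO and 1389, 740 and 1060 times in PP2Ac WT, at 1.38 (SE 0.24, adjusted p = 0.00183). Rn7sk, the scaffold RNA that holds back the elongation factor P-TEFb, was at 0.82 (SE 0.14, adjusted p = 0.00189) and Rmrp, the RNA of a ribonuclease that processes ribosomal RNA, at 1.05 (SE 0.19, adjusted p = 0.00237). KO replicate 2 was the lowest KO library for Gm42418 and for each of these 3 rows.

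Of the 6 tested rows listed as ribosomal, 5 were called higher and none lower, beside 18.1% and 19% of all genes. Their median was 0.58 on the log2 scale. The 6 include Gm42418 itself and Lars2, a protein gene and not a ribosomal RNA, at 0.53 (SE 0.09, edgeR adjusted p = 0.00184). Gm26917, 617 bases to the left of Gm42418 on the same strand, was at 0.64 (SE 0.12, adjusted p = 0.00257). The ratio of Gm42418 to Gm26917 counts was 9.61, 8.07 and 10.3 in PP2Ac KO and 8.19, 6.46 and 7.94 in PP2Ac WT. The mitochondrial ribosomal RNA mt-Rnr2 had a value of 0.28 (SE 0.10, adjusted p = 0.0521; 0.00749 with the block). The poly(A) selection of the libraries removes most RNA without a tail, and the part of unequal removal in the difference of Gm42418 was not tested.

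**Figure D5:**
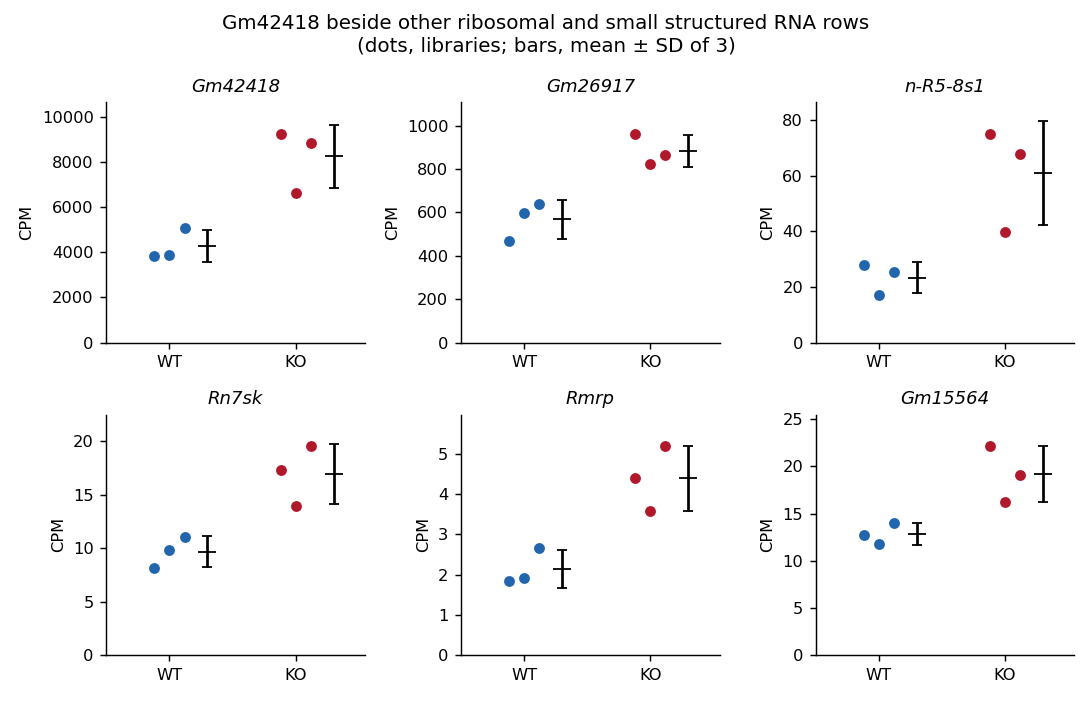
Level in CPM (linear axes from 0) of Gm42418 and 5 other rows of ribosomal or small structured RNA in the 3 PP2Ac WT (blue) and 3 PP2Ac KO (red) libraries, with the mean ± SD of each group in black. The KO libraries lie above the WT libraries in all 6 panels, with Gm42418 at 6637 to 9252 against 3835 to 5077 CPM, and KO replicate 2 is the lowest KO library in each.

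Other long noncoding RNAs known from immune cells were set beside AW112010 and Mir155hg. Of 14 listed, 10 passed the filter on low counts, AW112010 among them as a description with no test, and beside Mir155hg itself Morrbid rose by 1.16 (SE 0.22, adjusted p = 0.00341) and Lncpint by 0.54 (SE 0.16, adjusted p = 0.0277). Morrbid, known for prolonging the life of short-lived myeloid cells, had 120, 80 and 115 counts in PP2Ac KO and 74, 57 and 32 in PP2Ac WT. Pvt1 was called lower at -1.26 (SE 0.33, adjusted p = 0.0158) and Mirt1 at -0.57 (SE 0.16, adjusted p = 0.0199). The other 4, Neat1 and Malat1 among them, were called neither way. Over all genes 18.1% were called higher and 19% lower, and over the tested long noncoding genes 13.4% and 8.81%.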

How the data were processed

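RNA-Seq was analysed for 3 PP2Ac KO and 3 PP2Ac WT libraries of mouse BMDM. Per the labels, poly(A) RNA was made into strand-marking libraries and sequenced as read pairs of 150 bases. The authors deposited whole-number counts per gene symbol, without normalization, on mm10/GRCm38. The submitters' processing notes name fastp 0.20.0, kallisto 0.46.1, STAR 2.7.1a, HTSeq 0.11.2, edgeR 3.34.0 and limma 3.48.3. The annotation release and strand setting are not given in the sources used here, so genes that overlap may share reads.

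Genes were kept by filterByExpr (10 counts, 15 in total), scaled by TMM and tested for genotype with the quasi-likelihood test of edgeR 4.0.16 in R 4.3.3, with Benjamini-Hochberg adjustment over 13680 genes. The steps were tested on simulated data. CPM used the scaled library sizes. Standard errors were taken from the F statistic. Gene models came from GENCODE M21 (98.4% of symbols matched). The members and gene lists were chosen with earlier results of these data known. Named genes are the members, the 3 called genes with the largest change on a list, the nearest tested gene on each side, the 5 nearest in pattern, and others given as values. Some genes that this rule names are not reported here. The rows of untailed RNA and the ribosomal protein list were added after values were seen.

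Replicate numbers in the labels were checked for pairing: same-numbered libraries deviated together from their group means (correlations 0.249, 0.123 and 0.310 over 13680 genes). Values with the number as a block are given where they change the call of a gene named or the count of a list described. Alternatives were other scalings and filters, DESeq2 1.42.0, limma-voom 3.58.1 and leaving out each library. Replicates of a group differed by more than counting noise (chi-square per degree of freedom of 9.54 to 46.0).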

Additional observations from a re-analysis of the deposited data

How the results depend on the processing

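The replicate block moved Gas5 past the threshold (0.18, adjusted p = 0.00825) and changed no other call among the tested members. Leaving out 1 library at a time gave a log2 fold change of 2.43 to 3.20 for AW112010, 2.10 to 2.40 for Mir155hg, 0.29 to 0.43 for Mir22hg, 0.12 to 0.23 for Gas5, -1.08 to -0.70 for Snhg1 and 0.85 to 1.10 for Gm42418. Of these only Mir22hg lost its call, without KO replicate 2. The sign of 3 members that were not called was not stable: Neat1 ran from -0.11 to 0.084, Malat1 from -0.020 to 0.15 and Snhg12 from -0.073 to 0.088 over the same omissions. Neat1 had -0.055 and Snhg12 -0.036 with upper-quartile scaling. The cause of these changes of call and sign was not tested. The 4 members called higher or lower, other than AW112010, which was chosen for its rise, kept their direction under all 14 alternatives. Upper-quartile scaling made 38.4% of the calls over all genes higher ones, against 48.7% with TMM. The per-length levels of 4 members moved by more than 1 SD with the longest transcript as the length. The members with the fewest counts were Mir155hg, at 20 to 139, and Snhg1, at 51 to 143, which limits their precision.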
